A study of Saccharomyces cerevisiae with 262 samples.

Results

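Budding yeast segregants that lacked the LEU2 transcript were compared with segregants that carried it. LEU2 encodes the isopropylmalate dehydrogenase of leucine synthesis. The strains were haploid offspring of a cross between RM11-1a (RM), a vineyard isolate, and BY4716 (BY), a laboratory strain of the S288c background. As background, RM11-1a is a and has a deletion of LEU2, while BY4716 is alpha and carries LEU2. RM11-1a also lacks URA3 and an intact HO, and BY4716 lacks LYS2, so these markers segregate in the cross as well. The series holds 262 arrays of 2 colours in 131 dye-swap pairs, with segregants, RM and BY all measured against 1 pool of BY4716 RNA. Each segregant gave 1 pair, so a class is a set of different strains and not of repeats of 1 strain.

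The 2 classes were defined by the measured LEU2 level. A strain was placed in the leu2 class when its pair value, the mean log2 ratio of own RNA over the reference pool on its 2 arrays, was below -2.5, and in the LEU2 class otherwise. The leu2 class held 58 segregants and the LEU2 class 51, together 109 of the segregants measured. The other 4 were not used: strains 21-1-d, 22-5-d and 23-2-d were left out, and 23-3-d had no STE2 value with which to give it a mating type. LEU2 levels ran from -6.33 through a median of -5.20 to -3.95 in the leu2 class, against -1.46, 0.01 and 0.95 in the LEU2 class. The strains nearest the threshold were 18-6-d at -3.95 in the leu2 class and 14-2-c at -1.46 in the LEU2 class, so none lay close to it. These levels chose the strains and are given as a description.

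Leucine is made from the valine precursor 2-ketoisovalerate. Isopropylmalate synthase condenses it with acetyl-CoA, the product is isomerised by Leu1 and oxidised by Leu2, and an aminotransferase then gives leucine. The intermediate alpha-isopropylmalate is also the signal that turns the transcription factor Leu3 into an activator of several genes of this branch. Gcn4 is the broader activator of amino acid synthesis genes when amino acids run short. Leucine auxotrophs such as leu2 strains take leucine from the medium, whose composition is not given in the sources used here.

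LEU2 and the mating type locus both lie on chromosome III, and the classes were unequal in mating type. STE2, the receptor for alpha-factor made in a cells, was above 2.3 in 42 of 58 leu2 strains (72.4%) and in 11 of 51 LEU2 strains (21.6%). This mating type class was therefore a term in every fit reported below unless another is named. A set of 6 marker genes, namely STE2, BAR1, STE6, STE3, SAG1 and AFB1, placed 3 more leu2 strains in the a class, 7-5-d, 13-1-a and 17-1-a. In each of them 1 array read STE2 high and the other near 0 or below, while STE3, the receptor for a-factor made in alpha cells, lay at -5.77, -5.80 and -4.50. Results that depend on these 3 strains are given with the class from 6 markers as well.

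**Figure D1:**
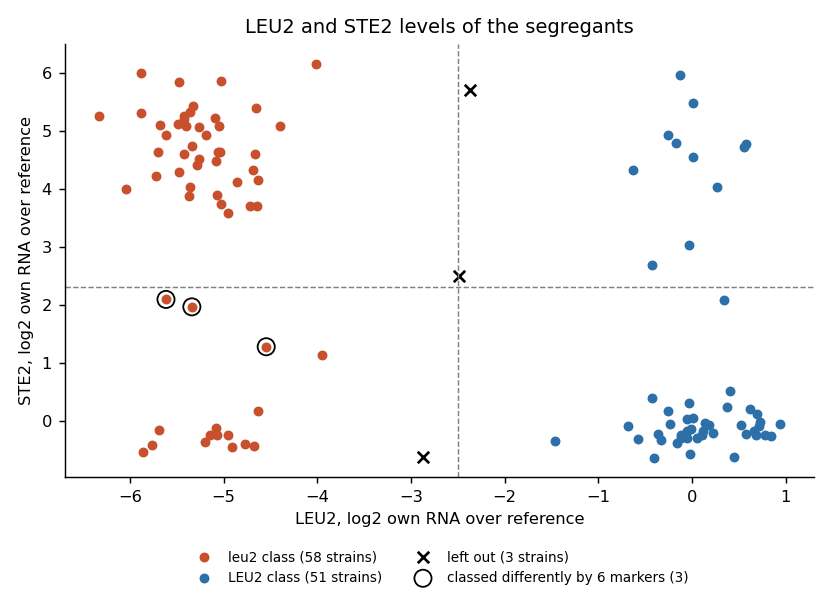
Pair values of LEU2 (horizontal axis) and STE2 (vertical axis), in log2 units of own RNA over the reference pool, 1 point per segregant, with dashed lines at -2.5 and 2.3. Where 1 array lacked STE2, the other gave its value. The 58 leu2 strains lie at or below -3.95 for LEU2 and the 51 LEU2 strains at or above -1.46; crosses mark the 3 strains left out and rings the 3 that 6 markers class as a.

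The other segregating markers were less uneven. URA3 lay nearer the RM level in 58.6% of leu2 strains and 47.1% of LEU2 strains, HO in 50% and 54.9%, and LYS2 in 51.8% and 34%. The correlation between the 2 arrays of a pair across probes had a median of 0.765 in the leu2 class and 0.687 in the LEU2 class. A median of 6094.5 probes in leu2 strains and 6044 in LEU2 strains had a value on both arrays, and the SD over probes had a median of 0.502 in leu2 strains and 0.397 in LEU2 strains. The 3 strains left out had pair correlations of 0.0804, 0.156 and 0.155, below the lowest of 0.371 among the strains used, and their 2 arrays gave opposite LEU2 levels. In 21-1-d, for instance, LEU2 was -0.20 on the Cy5 array and -5.55 on the Cy3 array. The number of arrays limits the precision of every value.

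Genes of leucine, isoleucine and valine synthesis were among the highest in the leu2 class. OAC1, BAT1, LEU4, ILV3 and ILV2 were each more than 1 log2 unit above the LEU2 class, as was the permease gene BAP2. Genes of arginine, histidine, aromatic and sulfur amino acid synthesis, and of serine, homoserine and threonine synthesis, were also among those higher. Their differences were smaller or their spread was wider. Few genes were lower by much, and the clearest was UBP9.

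The fit covered 5522 probes, for 5074 named genes, with a pair value in at least 80% of the strains. At a Benjamini-Hochberg adjusted p under 0.05 in limma, 292 probes differed (5.29%), 208 of them higher (3.77%) and 84 lower (1.52%) in the leu2 class. The called probes had a median absolute difference of 0.27 log2 units, against 0.06 over all tested probes, with a median SE of 0.0554. Among called probes 77 were higher by over 0.5 and 22 by over 1, whereas 3 were lower by over 0.5 and 0 by over 1. Beyond mating type, the class took up over 20% of the total variance over strains in 35 probes and over 10% in 187. The median was 0.929% over all tested probes. With the mating type class from 6 markers, 182 probes were called, 144 higher and 38 lower, and 180 of these were among the 292. Without the 3 strains 7-5-d, 13-1-a and 17-1-a 168 probes were called, 133 higher and 35 lower. With the first number of the strain name as a factor, whose meaning the labels do not give, 157 were called. Of the 70 genes named by rule, 22 were not called in that fit: ALD6, ALT2, COX11, MATALPHA1, NIS1, OLE1, RNR1, RPS22A, DIP5, STP2, ARG3, ORT1, TRP4, ERG8, HIS4, HIS5, LYS20, FRM2, GPA1, ADE3, ADE4 and RTG3. All differences below are leu2 minus LEU2 in log2 units.

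Of 14 genes in the lists of the leucine branch, of isoleucine and valine synthesis and of further reported Leu3 targets, 13 were tested, 11 were higher in the leu2 class, and 2 did not pass the test. The same 11 were higher with the mating type class from 6 markers. In all 13 the SD over strains was larger in the leu2 class.

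The first step of the leucine branch is catalysed by the isopropylmalate synthases Leu4 and Leu9. LEU4 ran from -0.02 through a median of 1.24 to 3.01 in leu2 strains, against -0.40, 0.00 and 1.53 in LEU2 strains. The classes overlapped, with 22 of 56 leu2 strains above the highest LEU2 strain, and the difference was 1.26 (SE 0.139, limma adjusted p = 4.39e-12). LEU9 ran from -0.28 through 0.64 to 2.00 in leu2 strains, against -0.98, 0.03 and 0.67 in LEU2 strains, a difference of 0.75 (SE 0.103, limma adjusted p = 1.66e-08). Of 58 leu2 strains 27 exceeded every LEU2 strain for this gene. LEU4 and LEU9 are close paralogs, and cross-hybridisation of their probes was not tested.

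OAC1 encodes a carrier of the inner mitochondrial membrane that transports oxaloacetate and also alpha-isopropylmalate. It ran from 0.46 through 2.36 to 3.81 in leu2 strains, against -0.82, 0.07 and 0.66 in LEU2 strains. It had the highest difference of all genes named here that passed the filter, 2.09 or 4.25-fold (SE 0.146, limma adjusted p = 7.68e-23). The classes barely overlapped: 55 of 57 leu2 strains lay above the highest LEU2 strain, and 48 of 51 LEU2 strains lay below the lowest leu2 strain. Beyond mating type, LEU2 class took up 52.5% of the total variance of OAC1 over strains.

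LEU1, the isomerase between the synthase and Leu2, did not pass the filter, since a pair value was present in 37 of 58 leu2 strains and 48 of 51 LEU2 strains, 78% of all. In those strains it ran from 1.23 through 2.70 to 4.60 in the leu2 class, against -0.95, 0.04 and 0.85 in the LEU2 class. These classes did not overlap. In the fit without a filter the difference was 2.75 or 6.71-fold (SE 0.175, limma adjusted p = 4.45e-23), above that of OAC1. With a value from either array, 55 leu2 strains ran from -0.05 through 3.10 to 4.81 and 51 LEU2 strains from -0.95 through 0.11 to 0.85, so that the classes then overlapped at the low end, and the difference was 2.76 (SE 0.190). In leu2 strains without a LEU1 pair value, OAC1 ran from 2.09 to 3.81 where it was measured. In those with one it ran from 0.46 to 3.81. The LEU1 values from both arrays thus cover every leu2 strain of low OAC1 and only part of those of high OAC1. Why values were missing more often in leu2 strains was not tested.

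The final step is the transfer of an amino group, by Bat1 in mitochondria and Bat2 in the cytosol. BAT1 ran from 0.40 through 1.78 to 3.12 in leu2 strains, against -0.84, 0.13 and 0.94 in LEU2 strains, a difference of 1.63 or 3.09-fold (SE 0.129, limma adjusted p = 2.33e-19). Of 57 leu2 strains, 51 exceeded every LEU2 strain. BAT2 ran from -1.02 through -0.22 to 1.57 in leu2 strains, against -1.16, -0.60 and 0.15 in LEU2 strains, so most strains of both classes were below the reference pool. Its difference was 0.62 (SE 0.119, limma adjusted p = 1.43e-04), and its call ended in a strains taken alone. The 2 genes are paralogs, and cross-hybridisation of their probes was likewise not tested. LEU3, which encodes the transcription factor, had medians of -0.07 in leu2 strains and -0.18 in LEU2 strains, a difference of 0.05 that did not pass the test (SE 0.0456, limma adjusted p = 0.648).

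**Figure D2:**
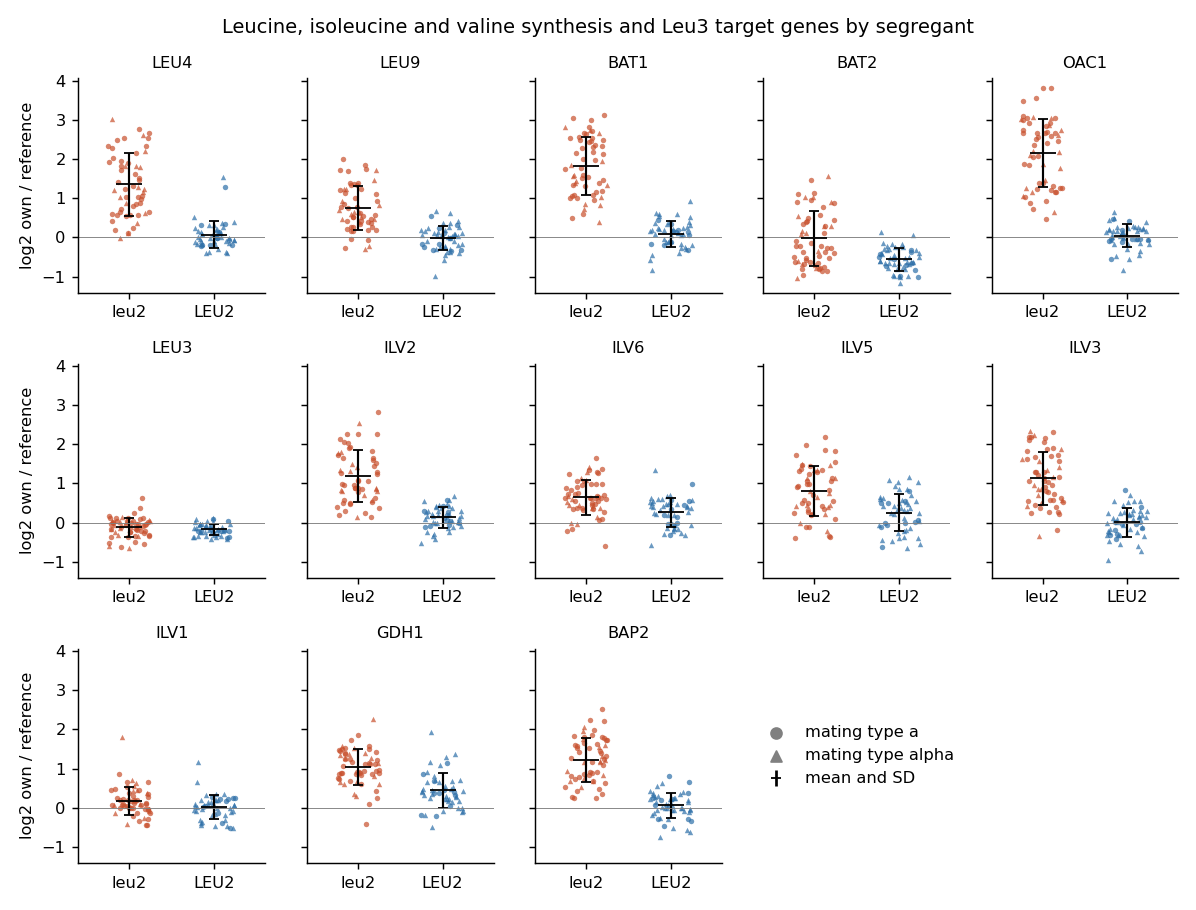
Pair values of 13 genes, log2 units of own RNA over the reference pool, for leu2 strains (left of each panel) and LEU2 strains (right); circles are a strains, triangles alpha strains, and bars the mean and SD. OAC1, BAT1 and BAP2 show the least overlap between classes, while LEU3 and ILV1 show the most similar levels.

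Isoleucine and valine are made by shared enzymes, the same ones that supply 2-ketoisovalerate to the leucine branch. ILV2, the catalytic subunit of acetolactate synthase, ran from 0.13 through 1.07 to 2.82 in leu2 strains, against -0.51, 0.15 and 0.69 in LEU2 strains, a difference of 1.03 (SE 0.116, limma adjusted p = 8.09e-12). ILV6, its regulatory subunit, had medians of 0.63 in leu2 strains and 0.33 in LEU2 strains and differed by 0.36 (SE 0.0918, limma adjusted p = 0.00684). The 2 subunits thus differed by unequal amounts, a contrast that was not itself tested. ILV5, the reductoisomerase, had medians of 0.80 in leu2 strains and 0.31 in LEU2 strains and differed by 0.55 (SE 0.126, limma adjusted p = 0.00208). ILV3, the dihydroxyacid dehydratase, ran from -0.34 through 1.06 to 2.35 in leu2 strains, against -0.95, 0.01 and 0.83 in LEU2 strains. ILV3 differed by 1.13 (SE 0.122, limma adjusted p = 1.88e-12). The calls of ILV5 and ILV6 ended under quantile normalization between pairs and in each mating type taken alone, at positive differences. ILV1, the threonine deaminase that feeds isoleucine alone, had medians of 0.10 in leu2 strains and 0.05 in LEU2 strains, and its difference of 0.20 did not pass the test (SE 0.0773, limma adjusted p = 0.120).

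BAP2, a permease for branched-chain amino acids, and GDH1, the NADP-dependent glutamate dehydrogenase of ammonium assimilation, are reported Leu3 targets outside the pathway. BAP2 ran from 0.24 through 1.23 to 2.52 in leu2 strains, against -0.73, 0.08 and 0.80 in LEU2 strains, a difference of 1.15 (SE 0.103, limma adjusted p = 1.59e-16). Here 43 of 58 leu2 strains lay above the highest LEU2 strain. GDH1 ran from -0.42 through 1.06 to 2.26 in leu2 strains, against -0.48, 0.39 and 1.93 in LEU2 strains, a difference of 0.62 (SE 0.102, limma adjusted p = 3.42e-06). Only 1 leu2 strain exceeded the highest LEU2 strain for GDH1.

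The difference between LEU2 classes was also taken within each mating type, where 42 leu2 and 11 LEU2 strains were a and 16 leu2 and 40 LEU2 strains were alpha. For all 13 pathway genes it was positive in both. OAC1 averaged 2.19 ± 0.908 in leu2 a strains (SD, n = 41) and 0.01 ± 0.276 in LEU2 a strains (n = 11). In alpha strains OAC1 averaged 2.07 ± 0.785 in the leu2 class (n = 16) and 0.05 ± 0.296 in the LEU2 class (n = 40). BAT1 differed by 1.86 in a strains and 1.44 in alpha strains, LEU4 by 1.25 and 1.26, BAP2 by 1.13 and 1.17, and ILV2 by 1.05 and 1.02. The term for an unequal difference in a and alpha strains was called in 0 of 5522 probes (0%) by limma, with 120 (2.17%) at an unadjusted p under 0.05. It was called in 0 probes under each of the 7 alternative settings as well. Its median SE over all tested probes was 0.112, so small inequalities between mating types were not detectable with these strain numbers. The SE was larger for the genes given here: 0.297 for OAC1, 0.259 for BAT1, 0.282 for LEU4, 0.209 for BAP2 and 0.234 for ILV2. For these genes larger inequalities could be missed as well.

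The 6 further lists of amino acid synthesis held 66 genes, of which 63 were tested. Of these 32 were called higher in the leu2 class by limma, 0 were lower (1 at an unadjusted p under 0.05), and 60 had a positive difference, with a median of 0.34. The median over all tested named genes was -0.01, and 3.77% of all tested probes were called higher. With the mating type class from 6 markers, 23 were higher and 0 lower. With the URA3, HO and LYS2 classes as added terms, 21 were higher and 0 lower, and with the first number of the strain name as a factor 19 were higher and 0 lower.

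Arginine synthesis had 7 of 8 tested genes higher and a median of 0.59, but 4 were higher with the 6-marker class, 3 without the strains 7-5-d, 13-1-a and 17-1-a, and 2 with the first number of the strain name as a factor. ARG1, argininosuccinate synthase, ran from -3.17 through 0.64 to 3.11 in leu2 strains, against -3.45, -1.55 and 3.62 in LEU2 strains. Its difference of 1.68 was among the highest of all, and yet the classes overlapped over nearly their whole range (SE 0.354, limma adjusted p = 6.34e-04). ARG3, ornithine carbamoyltransferase, ran from -3.88 through -0.39 to 2.53 in leu2 strains, against -3.72, -1.65 and 2.33 in LEU2 strains, a difference of 1.06 (SE 0.285, limma adjusted p = 0.0128). Its call ended without those 3 strains. ARG7 differed by 0.87 (SE 0.186) and the mitochondrial ornithine carrier gene ORT1 by 0.48 (SE 0.130).

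Histidine synthesis had 4 of 7 genes higher with a median of 0.47, and 3 with the 6-marker class. HIS3 differed by 0.79 (SE 0.158, limma adjusted p = 2.97e-04), HIS7 by 0.47 (SE 0.111) and HIS5 by 0.65. The adjusted p of HIS5 was 0.0194, and 0.0803 with the 6-marker class. HIS4, which lies near LEU2, is given below with its chromosome. Of 14 aromatic amino acid genes 7 were higher with a median of 0.27, and 4 with the 6-marker class. ARO9, an aromatic aminotransferase of tryptophan breakdown, differed by 1.05 (SE 0.240), ARO3, a synthase of the first step of the shikimate pathway, by 0.51 (SE 0.118), TRP4 by 0.41 and TRP3 by 0.38.

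Serine, homoserine and threonine synthesis had 5 of 9 genes higher with a median of 0.36, also with the 6-marker class. HOM2, aspartate semialdehyde dehydrogenase, differed by 0.62 (SE 0.121, limma adjusted p = 1.70e-04), the serine synthesis genes SER3 by 0.46, SER1 by 0.45 and SER33 by 0.36. SER3 and SER33 are paralogs, and cross-hybridisation of their probes was not tested. Of 17 sulfur amino acid genes 7 were higher with a median of 0.41, and 6 with the 6-marker class. MET10, a subunit of sulfite reductase, ran from -0.78 through 0.70 to 4.03 in leu2 strains, against -0.86, -0.02 and 1.53 in LEU2 strains, and differed by 0.89 (SE 0.192, limma adjusted p = 9.01e-04). MET16 differed by 0.65, MET22 by 0.60 and MET28 by 0.51. Of 8 lysine genes 2 were higher with a median of 0.25, LYS1 by 0.90 (SE 0.218, limma adjusted p = 0.0039) and LYS20, a homocitrate synthase, by 0.55, and LYS20 was not called with the 6-marker class (adjusted p = 0.0687).

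**Figure D3:**
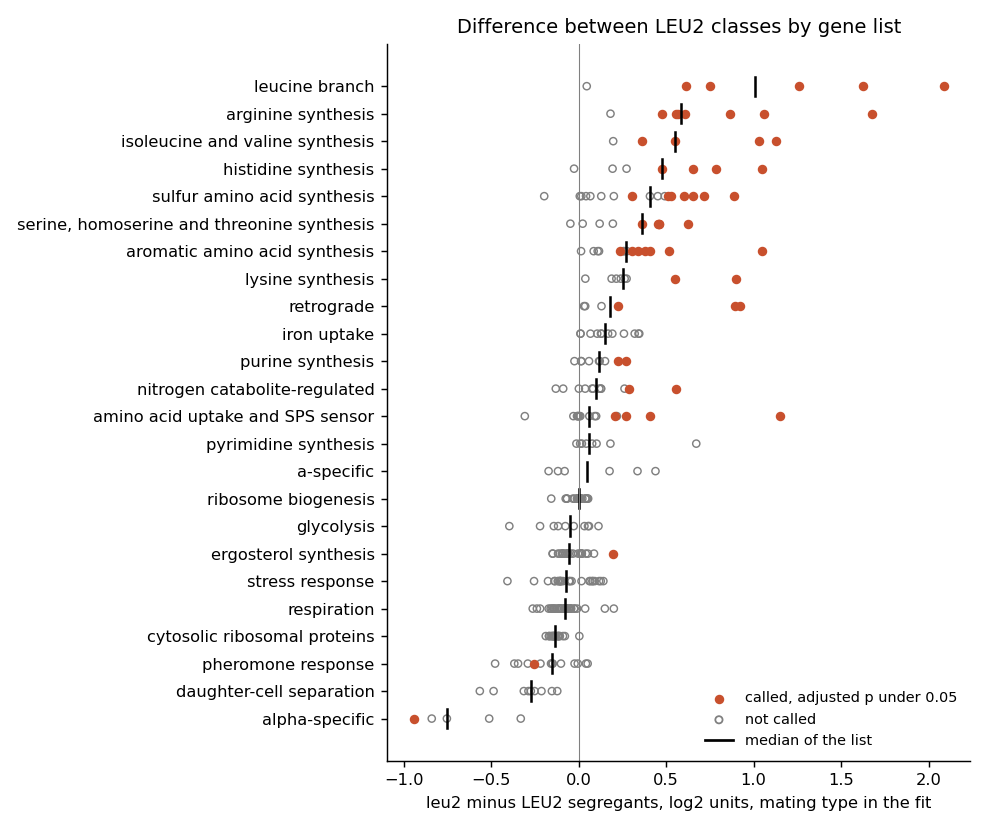
Difference between leu2 and LEU2 strains in log2 units, with mating type in the fit, for each tested gene of 24 lists; filled points were called at an adjusted p under 0.05 and the black bars are list medians. The amino acid synthesis lists fill the top of the plot, from the leucine branch at a median of 1.01, and hold most of the filled points; alpha-specific genes are at the bottom with a median of -0.75.

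Among regulators and permeases, GAT1, an activator of nitrogen catabolite genes, differed by 0.56 (SE 0.0997, limma adjusted p = 3.28e-05) and GLN3, another such activator, by 0.29 (SE 0.068, limma adjusted p = 0.0031). These were the 2 called among 12 tested nitrogen catabolite-regulated genes, while 3.77% of all tested probes were called higher. GAP1, the general amino acid permease, differed by 0.26 without passing the test (adjusted p = 0.623). In the list of amino acid uptake and its SPS sensor, 4 of 15 genes were higher with a median of 0.06. Beside BAP2 these were DIP5 (0.41), the transcription factor gene STP2 (0.27) and the arginine permease gene CAN1 (0.21), of which CAN1 was not called with the 6-marker class (adjusted p = 0.0742). The related permease genes BAP3 (0.10), TAT1 (0.22) and AGP1 (0.00) did not pass the test.

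Of 6 tested genes of the retrograde response, which links mitochondrial state to nuclear transcription, 3 were higher. CIT2, the peroxisomal citrate synthase, ran from -0.73 through 0.72 to 2.27 in leu2 strains, against -1.12, -0.18 and 0.78 in LEU2 strains, a difference of 0.92 (SE 0.127, limma adjusted p = 1.68e-08). DLD3, a cytosolic dehydrogenase of 2-hydroxyglutarate, differed by 0.90 (SE 0.156, limma adjusted p = 1.81e-05) and the activator gene RTG3 by 0.22 (SE 0.0665, limma adjusted p = 0.0294). Among 9 purine genes ADE3 (0.27) and ADE4 (0.22) were higher, and ADE4 was not called with the 6-marker class (adjusted p = 0.0522). Of 23 ergosterol genes ERG8 alone was called, at 0.20, a share near that of all probes called higher (3.77%). With quantile normalization it differed by 0.13 and was not called.

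Outside the 50 kb around LEU2, the 12 highest called named genes included OAC1, BAT1, LEU4, BAP2 and ARG1. SNO1 and SNZ1, neighbours that act in vitamin B6 synthesis, were also among them. SNZ1 ran from -0.48 through 0.95 to 4.99 in leu2 strains, against -0.65, -0.30 and 0.27 in LEU2 strains, a difference of 1.68 (SE 0.245, limma adjusted p = 1.14e-07). SNO1 differed by 1.71 (SE 0.322, limma adjusted p = 1.07e-04) and reached 5.17 in the leu2 class, against 0.15 in the LEU2 class. For both genes the highest LEU2 strain was far below the highest leu2 strains, while the lowest strains of both classes were alike.

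DIC1, the mitochondrial dicarboxylate carrier, ran from -0.01 through 1.11 to 2.45 in leu2 strains, against -0.78, -0.12 and 0.71 in LEU2 strains, a difference of 1.18 (SE 0.125, limma adjusted p = 1.03e-12). ALD5, a mitochondrial aldehyde dehydrogenase, differed by 1.31 (SE 0.156, limma adjusted p = 8.45e-11). QDR2, a plasma membrane multidrug transporter, differed by 1.26 (SE 0.275, limma adjusted p = 0.00105), with medians of 0.25 in leu2 strains and -1.17 in LEU2 strains. YJL213W differed by 1.32 (SE 0.264) and ARO5, as the annotation names a gene of chromosome VII, by 1.24 (SE 0.242).

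The genes lower in the leu2 class had smaller differences. UBP9, a ubiquitin-specific protease, ran from -2.42 through -0.64 to 0.26 in leu2 strains, against -0.66, 0.02 and 0.64 in LEU2 strains. Its difference of -0.78 was the largest decrease that also held with the 6-marker class (SE 0.0851, limma adjusted p = 4.61e-12). Beyond mating type, class took up 44.0% of the total variance of UBP9. ALT2, a paralog of the alanine transaminase gene ALT1, differed by -0.45 (SE 0.106, limma adjusted p = 0.00301), SUR1 of sphingolipid synthesis by -0.35 (SE 0.0849), RPS22A of the small ribosomal subunit by -0.29, COX11 of cytochrome oxidase assembly by -0.29, and RNR1, the large subunit of ribonucleotide reductase, by -0.28. These 5 were also called with the 6-marker class, but all except SUR1 lost their call with the strain number as a factor, and RPS22A also without the 3 strains and with a class from STE3. TPO4 (-0.45), ALD6 (-0.34), OLE1 (-0.33) and NIS1 (-0.33) were called with the STE2 class but not with the 6-marker class, at adjusted p of 0.0595, 0.0838, 0.103 and 0.0742.

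STE3 and MATALPHA1 were the other 2 of the 12 lowest, and both are genes of alpha cells. STE3 averaged -4.22 in leu2 strains and -1.07 in LEU2 strains and differed by -0.94 after the STE2 class (SE 0.267, limma adjusted p = 0.0198), but by -0.42 with the 6-marker class (adjusted p = 0.30). MATALPHA1 differed by -0.40 (adjusted p = 0.0359), and by -0.17 with the 6-marker class (adjusted p = 0.435). STE3 is among those 6 markers, so its second value is not independent of the class. All 5 alpha-specific genes had negative differences, with a median of -0.75. Of these only MF(ALPHA)1 and MF(ALPHA)2 are outside the 6 markers, and they differed by -0.16 and -0.60 in that fit. No other member of that list was called, and 0 of 6 tested a-specific genes were called by limma (1 at an unadjusted p under 0.05). Of 14 pheromone response genes GPA1 alone was called (-0.26, adjusted p = 0.0396), and it was not called with the 6-marker class (adjusted p = 0.117). Over all tested probes 1.52% were called lower. At an unadjusted p under 0.05 in limma, 6 of these 14 genes and 4 of the 5 alpha-specific genes were lower, against 9.83% of all tested probes.

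A strain's LEU2 class also marks from which parent it took the DNA beside LEU2. Near this gene a difference that follows from loss of LEU2 and one that follows from linked sequence cannot be told apart. The same limit holds for genes on other chromosomes, since sequence linked to LEU2 may act on them too. Within 50 kb of LEU2, by the gene positions of assembly R64, 7 of 44 tested named genes were called (15.9%). Elsewhere on chromosome III 2 of 92 were called (2.17%), and on the other chromosomes 259 of 4938 (5.25%). The median absolute difference was 0.06 near LEU2, 0.05 elsewhere on chromosome III and 0.06 on the other chromosomes. NFS1, the cysteine desulfurase of iron-sulfur cluster assembly, is the next gene after LEU2. It ran from 0.04 through 0.49 to 0.85 in leu2 strains, against -0.26, 0.09 and 0.62 in LEU2 strains, a difference of 0.41 (SE 0.0382, limma adjusted p = 1.18e-15). Beyond mating type, class took up 47.2% of its total variance. By this share of the total it was above every other tested gene named here except OAC1.

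Of the 7 called genes near LEU2, HIS4, ILV6 and CIT2 belong to lists described above. HIS4, 11 genes before LEU2, differed by 1.04 (SE 0.258, limma adjusted p = 0.00479), ILV6, 7 genes after it, by 0.36, and CIT2, 20 genes after it, by 0.92. FRM2, 6 genes before LEU2, differed by 0.26, RNQ1, 9 genes before it, by 0.11, and RER1, 13 genes after it and involved in retention of proteins in the endoplasmic reticulum, by -0.19. RNQ1 was not called with the 6-marker class (adjusted p = 0.0750). HIS4 and FRM2 were not called with the strain number as a factor, and FRM2 also not without the 3 strains. On chromosome VII, MPO1, the gene before LEU1, differed by 0.59 (SE 0.0615, limma adjusted p = 4.02e-13). Of the other tested neighbours of pathway genes outside chromosome III, SET5 beside BAT1 was called at 0.14, though not with the 6-marker class (adjusted p = 0.0619), and TAL1 beside ILV5 at -0.28.

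**Figure D4:**
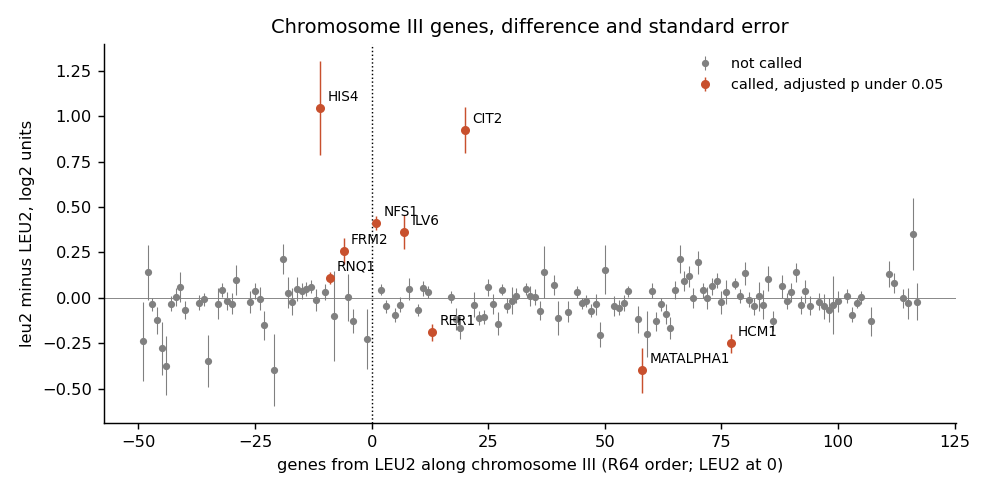
Difference between leu2 and LEU2 strains in log2 units (points) with its standard error (lines) for tested genes of chromosome III, in gene order from LEU2 at 0. Called genes are labelled; NFS1 at 0.41 is next to LEU2, and most of the other genes lie near 0.

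Several large groups showed few or no calls. By limma 0 of 36 respiration genes were called, with a median of -0.08, and likewise 0 of 19 cytosolic ribosomal protein genes (median -0.14), 21 ribosome biogenesis genes (0.00), 24 stress response genes (-0.07), 10 glycolysis genes (-0.05), 12 iron uptake genes (0.15), 9 daughter-cell separation genes (-0.27) or 8 pyrimidine genes (0.06). At an unadjusted p under 0.05, 21 of these 139 genes differed, against 19.0% of all tested probes. Among the cytosolic ribosomal protein genes it was 8 of 19, all lower in the leu2 class, against 9.83% of all tested probes that were lower at that p. That list is of 21 genes and not of all ribosomal protein genes. It leaves out RPS22A, which was called lower, as given above. The pyrimidine gene URA10 differed by 0.67, at an adjusted p of 0.0520. URA3 differed by -0.93 with an SE of 0.544 and HO by -0.08 with an SE of 0.446, and neither passed the test. The unevenness of URA3 between the classes, given above, moves in the same direction as its difference, and its part in other differences was not tested beyond the fit with added marker classes.

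The parents differ at LEU2 and at many other loci, and their arrays are not those of the segregants. In RM, whose LEU2 level averaged -5.93 ± 0.378 (SD, n = 6), against 0.03 ± 0.151 in BY (n = 5), 1476 of 2632 tested probes differed from BY (56.1%). Of the 11 pathway genes that were higher in leu2 segregants, 9 were called higher in RM, 1, BAT2, was called lower and 1, ILV6, was not called. OAC1 averaged 2.38 ± 0.160 in RM (n = 6) and -0.05 ± 0.161 in BY (n = 5), a difference of 2.42 (SE 0.0889, limma adjusted p = 2.95e-10). BAT1 averaged 2.18 ± 0.126 in RM and -0.02 ± 0.0484 in BY (n = 6 each), and differed by 2.20. LEU1 lay between 3.53 and 3.62 in the 6 RM replicates and between -0.26 and 0.15 in the 6 BY replicates when either array was taken. With both arrays required, the RM replicates lay between 2.98 and 3.63. LEU1 was not in the parental fit. Nothing in the labels tells whether the parental replicates were grown separately, so these p-values measure only the spread between the samples.

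BAT2 went the other way. It averaged -0.58 ± 0.112 in RM and 0.11 ± 0.0884 in BY (n = 6 each), a parental difference of -0.70 (SE 0.0569, limma adjusted p = 2.64e-07), against 0.62 between leu2 and LEU2 segregants. The LEU2 segregants themselves had a BAT2 median of -0.60. QDR2 likewise differed by -0.87 between the parents and by 1.26 between the segregant classes. SER1 was called at -0.31 between the parents, against 0.45 between the segregant classes. SUR1, ALD6 and OLE1 were called higher in RM, at 0.94, 0.69 and 0.70, though lower in leu2 segregants. GDH1 differed by 1.96 between RM and BY, over 3 times its 0.62 between the segregant classes in log2 units. ILV6 differed by 0.18 between the parents without passing the test (limma adjusted p = 0.197), but passed it with the replicate number as a block (limma adjusted p = 0.00336). BY replicates 1 and 2 stood apart from replicates 3 to 6 in some of these genes: ILV5 lay at -0.28 and -0.16 in those 2 replicates and between 0.26 and 0.43 in the others. Against BY replicates 3 to 6 alone the difference from RM was 0.57 for ILV5, 0.30 for ILV6, 0.96 for ILV2, -0.65 for BAT2 and 2.31 for OAC1. Over all called segregant probes with a parental test, 121 of 177 had the same sign in RM minus BY (68.4%), against 1318 of 2631 over all tested probes (50.1%). Of the 119 that were also called between the parents, 94 had the same sign.

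**Figure D5:**
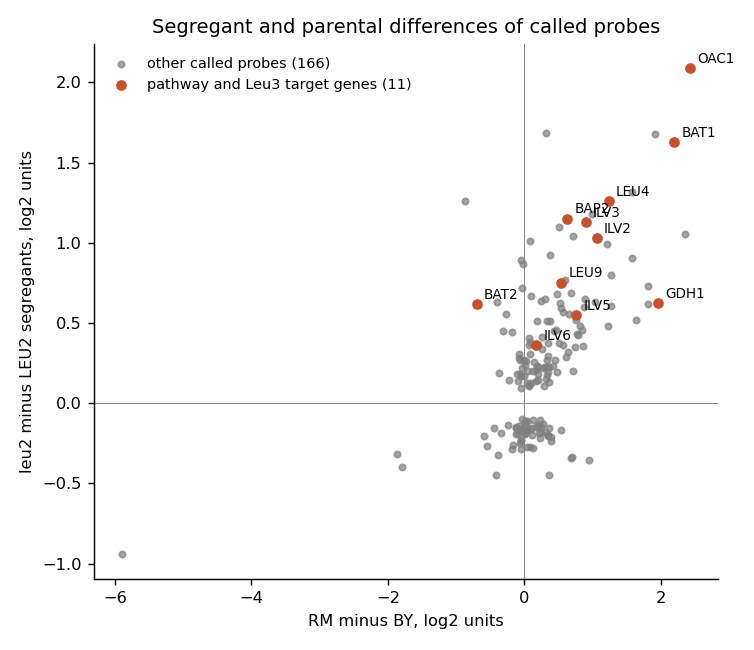
Difference between leu2 and LEU2 segregants (vertical axis) against the difference between RM and BY (horizontal axis), both in log2 units, for the 177 called segregant probes with a parental test; the 11 pathway and Leu3 target genes are coloured and named. OAC1 and BAT1 are high on both axes, while BAT2 lies left of 0.

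The direction of the deposited ratios is not stated in the sources used here and was set by LEU2, STE2 and URA3, which makes it likely rather than certain. The RNA is of whole cultures, in which fewer cells of a kind and less RNA per cell cannot be told apart.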

How the data were processed

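The deposited values are log2 ratios per probe and array, with the base taken from their range (largest absolute value 11.98) since it is not stated, and the authors had centred each array to a mean of 0 (largest absolute array mean 1.16e-08). For the scanner, the background correction and any filter on spots, the sources used here give nothing. As deposited the ratios ran as reference over own RNA in both dye orientations, so the sign was turned, and array medians then lay between -0.0969 and 0.0735. The lowest correlation between 2 segregant arrays of 1 dye orientation was -0.253. Signal over background was not used, so the sizes of very low values such as LEU2 in leu2 strains are uncertain.

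Of 7085 probes, 5645 carried 1 gene symbol and 1440 none, and 23 of the called probes had none and are not named. For 40 genes with several probes 1 probe stood for the gene. A pair value was the mean of both arrays and missing where either was missing, which concerned 5.13% of values of tested probes. For STE2 and the other genes that set the mating type, URA3, HO and LYS2 classes, 1 array sufficed where the other was missing. The segregants were compared by lmFit and eBayes of limma 3.58.1 in R 4.3.3, two-sided, with LEU2 class and mating type class (STE2 above 2.3) as terms, at least 10 strains per class and p-values adjusted over all tested probes. LEU2 and STE2 were not tested. Percent of variance is the part that LEU2 class added after mating type, as a share of the total variance over strains. Parents were fitted alone, with repeats of an RM number averaged. Deviations from the parental means correlated across probes between RM and BY replicates of the same number, with r from 0.128 to 0.512 in 6 of 6 pairs, so a replicate block was tried as well; what a number marks is not given in the labels. Figures were drawn with matplotlib 3.10.9 in Python 3.11.15. The steps were tested on simulated data. Genes were named by rule: all tested members of the 3 branched-chain lists, the 12 highest and 12 lowest called genes outside 50 kb of LEU2, up to 10 called genes within it, and up to 4 called genes of each other list. MPO1, SET5, TAL1, and list members named without a call, were named after their values were seen, as were LEU1 and the mating type class from 6 markers. The members and the lists were chosen with earlier results of these data known. Promoter motifs were not analysed here.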

Additional observations from a re-analysis of the deposited data

Results flagged for a closer look

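Among pathway genes in the parents, 4 values stood far from the other 5 of their group by Dixon's criterion, which flags about 1 in 20 groups by chance. RM replicate 5 was low for LEU4 (0.98) and for OAC1 (2.07), RM replicate 1 was low for ILV1 (-0.27), and RM replicate 6 was high for GDH1 (1.82).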

How the results depend on the processing

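The count of 292 probes between leu2 and LEU2 strains changed with how mating type entered the fit. It was 587 (334 higher, 253 lower) with no mating type term, 157 with a class from STE3, 182 with a class from 6 markers and 168 without 7-5-d, 13-1-a and 17-1-a, of which the last 2 were chosen after seeing the data. It was 159 with URA3, HO and LYS2 classes added and 157 with the first number of the strain name as a factor. It was 22 in a strains alone (42 leu2 and 11 LEU2) and 219 in alpha strains alone (16 leu2 and 40 LEU2). The cause of that gap was not tested, and the term for an unequal difference was called in 0 probes. With a pair value required in every strain it was 77, with 834 probes tested. In other settings it lay between 228 and 377, among them 359 with quantile normalization between pairs. The share of higher calls was 71.2% in the main setting, 56.9% with no mating type term, 95.5% in a strains alone and 59.7% with a value in every strain. Between RM and BY, 2409 of 4537 probes were called when a value from either array sufficed, and 1894 of 2805 with BY replicates 3 to 6 alone. With a replicate block, chosen after seeing the data, it was 1562 of 2632, and among named genes with a parental test the call changed only for ILV6, TPO4 and ARG3, each of which gained it. Of 70 named genes 0 changed sign in 20 alternatives, and 15 stayed on their side of the threshold in each alternative run, among them OAC1, BAT1, LEU4, LEU9, ILV2, ILV3, BAP2, GDH1, NFS1, CIT2 and UBP9. The other 55 lost their call in at least 1, often in a strains alone. Missing values and 1 pair per strain limit small differences.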

Other observations

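NFS1 was 1 of several genes of iron-sulfur cluster assembly among those higher in the leu2 class, and the enzymes Leu1 and Ilv3 are themselves iron-sulfur proteins. A list of 22 genes of mitochondrial and cytosolic cluster assembly was written after these values were seen and carries no test of its own. Of its 20 tested genes, 8 were higher in the leu2 class, 0 were lower and 12 were not called, with a median of 0.08. Over all tested probes 3.77% were called higher and 1.52% lower. With the mating type class from 6 markers 6 were higher. ISU2, a scaffold protein of the mitochondrial pathway, ran from -0.03 through 0.62 to 1.82 in leu2 strains, against -0.53, -0.03 and 0.79 in LEU2 strains, a difference of 0.64 (SE 0.0872, limma adjusted p = 1.99e-08). Of the cytosolic pathway, DRE2 differed by 0.48 (SE 0.0901, limma adjusted p = 8.73e-05), CFD1 by 0.33, NAR1 by 0.23 and TAH18, the partner of Dre2, by 0.22. The paralogous scaffold gene ISU1 differed by 0.29 and ISA1 by 0.29, and neither was called with the 6-marker class (adjusted p of 0.0668 and 0.102). Iron uptake genes, given above, were not called, though all 12 tested had a positive difference. At an unadjusted p under 0.05 in limma, 3 of them were higher, against 9.15% of all tested probes.

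Some enzymes of 2-oxo acid and nitrogen metabolism were among the 40 lowest adjusted p. They were picked after their values were seen and from no list, so their number has no share to be set against. MAE1, the mitochondrial malic enzyme, differed by 1.03 (SE 0.150, limma adjusted p = 1.31e-07) and PYC1, a pyruvate carboxylase, by 0.49 (SE 0.0877). AAT2, the cytosolic aspartate aminotransferase, differed by 0.45 (SE 0.0802) and GDH3, a paralog of GDH1, by 0.52 (SE 0.0997). Cross-hybridisation of the GDH1 and GDH3 probes was not tested. NCE103, carbonic anhydrase, was also among the 40 and differed by 0.68 (SE 0.127).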
